A study of Mus musculus with 2 samples.

Results

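The genes of the proteins that build the cytosolic ribosome were examined in newborn mouse heart. Members were the protein-coding genes whose symbols begin with Rpl or Rps followed by a number, together with Rplp0, Rplp1, Rplp2 and Rpsa, and the Rps6k kinases were left out. The rule gave 86 genes of 55536 mouse genes measured, of which 22015 were nuclear and protein-coding. Of the 86, 34 are named for the small (40S) subunit and 52 for the large (60S) subunit. By textbook knowledge 77 encode core ribosomal proteins, 7 are paralogs of a core gene (Rpl3l, Rpl22l1, Rpl39l, Rpl10l, Rpl36al, Rps27l and Rps27rt), and Rps19bp1 and Rpl7l1 carry such a symbol without encoding a constituent of the standard ribosome.

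The study is a description of 1 tissue with no contrast between conditions. Total RNA came from heart tissue of male B6CASTF1/J mice aged 4 days, F1 animals of the C57BL/6J and CAST/EiJ strains, with no treatment named. Libraries were stranded, depleted of ribosomal RNA and carried ERCC spike-ins, each from 300 ng of input, 1 library from each of the animals numbered 3 and 4, called replicate 1 and replicate 2 here. Both animals carry the same donor record, and if both samples came from 1 animal the spread between them would be technical. Expected counts on mouse genes were 31512596 in replicate 1 and 35744013 in replicate 2, and the 5 heart muscle markers, among them Myh6 and Myl2, were at 316.55 TPM or above in both hearts. With 2 hearts an exact sign-flip test has a smallest two-sided p of 0.5, so no test was run and values, spreads and counts are given.

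A eukaryotic ribosome joins ribosomal RNA with one copy of most of its proteins, so cells are known to make these proteins in near-equal amounts. The 40S subunit reads the messenger RNA and the 60S subunit forms the peptide bonds. Their mRNAs are short, abundant and stable, and most begin at a cytosine followed by a run of pyrimidines, the 5' terminal oligopyrimidine (TOP) tract through which mTOR signalling and Larp1 control their translation. Mammalian genomes also hold many processed pseudogenes of ribosomal protein genes, reverse-transcribed copies of these mRNAs placed elsewhere in the genome. The heart of a newborn mouse is growing fast, with muscle cells that pass from division to enlargement.

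Levels are given as TPM, the deposited per-length measure of transcript abundance, which can be compared between genes. Each library was quantified in the deposited files by 2 methods, called the first and the second quantification, and values are of the first unless stated. Expressed means a TPM of 1 or more in each heart. Of the 86 members 84 were expressed, where 23.8% of all mouse genes and 53.8% of nuclear protein-coding genes were. The other 2, Rpl39l and Rpl10l, had 0 counts in both hearts, which allows up to 3 counts, or 0.0952 CPM in replicate 1 and 0.0839 in replicate 2. Members made up 11 of the 100, 69 of the 500 and 76 of the 1000 nuclear protein-coding genes ranked highest by mean TPM. Together they held 2.66% of mouse-gene TPM in replicate 1 and 2.69% in replicate 2, or 5.84% and 6.17% of the TPM of nuclear protein-coding genes. Of the expected counts they held 1.10% and 1.17%. In bulk heart RNA a smaller number of cells of a type and less RNA per cell cannot be told apart.

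The 77 core genes had a median of 343 TPM, and 63 of them lay within 2-fold of it. The 31 core 40S genes had a median of 367 TPM, with 362 in replicate 1 and 376 in replicate 2. The 46 core 60S genes had a median of 309 TPM, with 306 and 308 in the hearts. In the second quantification the medians were 555 TPM for the core 40S genes and 547 for the core 60S genes. The middle 50% of the core genes lay between 209 and 419 TPM, and the SD of their log2 levels was 0.95. For comparison, the median of the 11854 expressed nuclear protein-coding genes was 12.2 TPM.

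**Figure D1:**
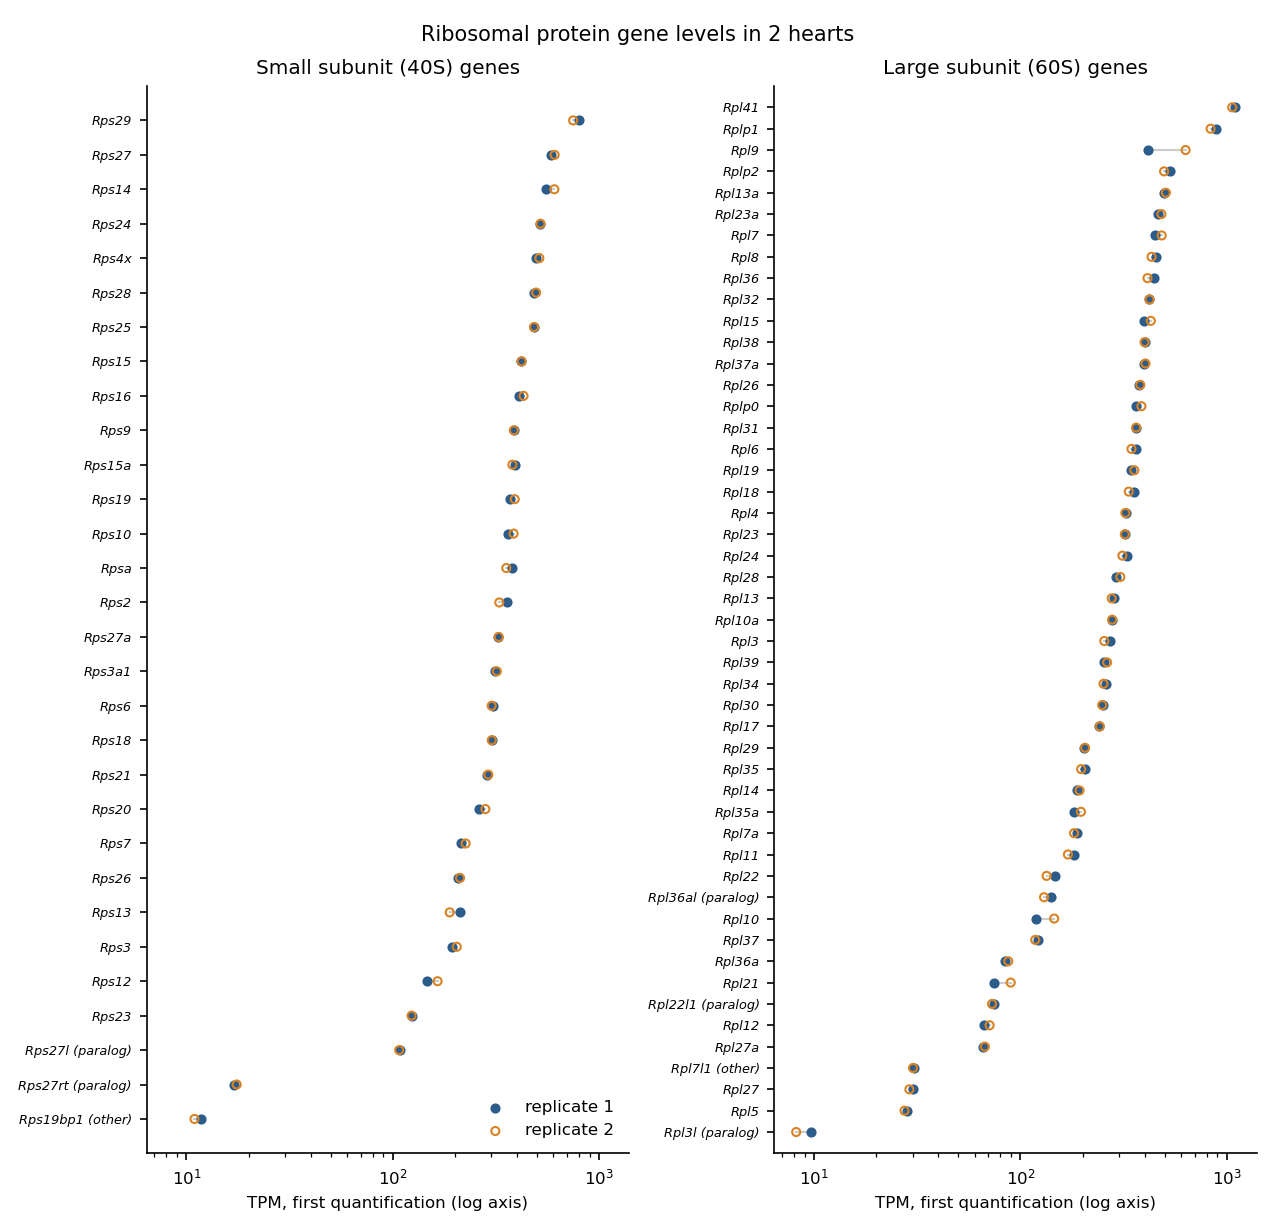
TPM (first quantification, log axis) of members with a value above 0, those not reported by name left out, in replicate 1 (filled) and replicate 2 (open), 40S genes at left and 60S genes at right, each sorted by the mean. The hearts nearly overlap for most genes, Rpl9 is split between 415 and 632 TPM, and the core genes end in a tail of 60S genes reaching Rpl5 at 27.9 TPM.

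Among 60S genes the highest was Rpl41 (chromosome 10, 128548114 to 128549305), which encodes a very small basic protein, with 1097 TPM in replicate 1 and 1062 in replicate 2. Next stood Rplp1, an acidic protein of the stalk that recruits elongation factors, with 882 and 835 TPM. Its stalk partner Rplp2 had 531 and 497 TPM, and Rplp0, the base that holds both, had 365 and 386. The stalk proteins P1 and P2 are known to be present in more than one copy per ribosome, and their genes stood above that of P0 in both hearts. The order did not hold in the second quantification, where Rplp0 had 781 and 889 TPM, Rplp1 776 and 786 and Rplp2 546 and 499.7. Rpl13a, which is also known for a role in silencing inflammatory mRNAs, had 497 and 507.

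Among 40S genes the highest was Rps29, a small zinc-binding protein of the 40S head, with 798 and 748 TPM, although in the second quantification it had 696 and 414 and Rps24 was the highest with 937 and 971. The zinc-finger protein gene Rps27 had 585 and 609 TPM, and Rps14, a protein of the platform where the subunits meet, had 555 and 607. Rps24 had 518 and 520 TPM, and the X-linked Rps4x had 497 and 513. Rps28 followed with 484 and 495 TPM. Mutations of Rps19, Rps24 and Rps26 in people are known causes of Diamond-Blackfan anaemia. Rps19 had 371 and 390 TPM and Rps26 206 and 212. Rps6, the 40S protein phosphorylated by S6 kinase, had 307 and 301 TPM.

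Of the 8 lowest core genes 7 encode 60S proteins. Rpl5, which with Rpl11 binds 5S rRNA and can bind Mdm2, had 28.3 and 27.4 TPM, and Rpl11 had 182 and 170. Rpl27 had 30.2 and 29.0 TPM and Rpl27a 66.0 and 67.2. Rpl12, a protein at the base of the stalk, had 66.4 and 70.9 TPM. Rpl21 had 74.5 and 89.7 and Rpl36a, which lies near the exit site of the ribosome, had 84.0 and 87.3. The lowest core 40S gene was Rps23, a protein of the decoding centre, with 123 TPM in each heart. In each case, Rpl21 with its wider gap included, both hearts lay further from the core median of 343 TPM than from each other.

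The second quantification gave other values for the same low genes. There Rpl5 had 224 TPM in replicate 1 and 273 in replicate 2, Rpl27 had 426 and 400, and Rpl27a had 552 and 562. Rpl10, a 60S protein that joins late and lies near the catalytic centre, had 119 and 146 TPM in the first quantification and 694 and 786 in the second. Rps23 had 679 and 743 TPM in the second. The difference for each of these genes was larger than the gap between the hearts within either quantification.

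Of the 84 expressed members, 25 were over 2-fold higher in the second quantification in both hearts, against 8.65% of all genes tested, and 3 were over 2-fold lower, against 3.9%. Either way the count was 28, against 12.6%. After centring on the median of all genes it was 15, against 9.69%, and at 1.5-fold without centring it was 53, against 29.4%. By means of the hearts the 8 members that differed most were Rpl27 with 13.98-fold, Rpl5 with 8.92-fold, Rpl27a with 8.36-fold, Rps23 with 5.76-fold, Rpl10 with 5.59-fold, Rpl37 with 4.54-fold, Rpl21 with 4.28-fold and, in the other direction, Rps27rt, which was listed at 0 in the second. The median member was 1.71-fold higher in the second quantification and the median of all genes 1.36-fold. The denominators differed, since nuclear protein-coding genes held 45.6% and 43.6% of mouse-gene TPM in the first quantification and 66.6% and 65.1% in the second. On TPM rescaled to nuclear protein-coding genes the median member was 1.16-fold higher.

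Pseudogene copies stood beside the low members. Every stretch of 100 bases was taken from each member's leading transcript and looked up in the transcripts of all other genes. That length is the read span implied by the effective lengths of the first tables. The leading transcript here was the highest by mean TPM over both hearts and both quantifications, whatever its type. Other forms of a member were not searched. Of the 86 members 76 shared at least 1 such stretch with another gene and 10 shared none, among them Rpl22, Rpl32, Rps3 and Rps21. The sharing genes numbered 471, of which 456 are pseudogenes by type or symbol and 455 of these shared with 1 member alone. These 455 are called copies here. They held 0.857% of mouse-gene TPM in replicate 1 and 0.838% in replicate 2, against 0.504% and 0.475% in the second quantification.

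For 14 core members over 50% of the TPM of the member and its copies was on the copies in the first quantification. Rpl5 led, with 92.3% on copies, most of it on Gm15500 (chromosome 7, 114705217 to 114706235) at 327 and 336 TPM. Rpl27 had 92.0% on copies, of which Gm11518 (chromosome 11, 94037218 to 94037628) and Rpl27-ps3 had 179 TPM each in replicate 1 and 160 each in replicate 2. Rps23-ps1 (chromosome 3, 37714740 to 37715164) had 457 and 478 TPM, above its parent Rps23. Rpl10-ps3 (chromosome 9, 50344201 to 50344968) had 292 and 295 TPM, and Gm7536, a copy of Rpl27a, had 265 and 257. The 14 members were a median 4.01-fold higher in the second quantification, and the 40 members with under 10% on copies a median 1.475-fold. The fold and the percent on copies share the member's first value, so a gap in this direction is in part built in. In the second quantification 3 members had over 50% on copies, Rpl5, Rpl17 and Rpl19.

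**Figure D2:**
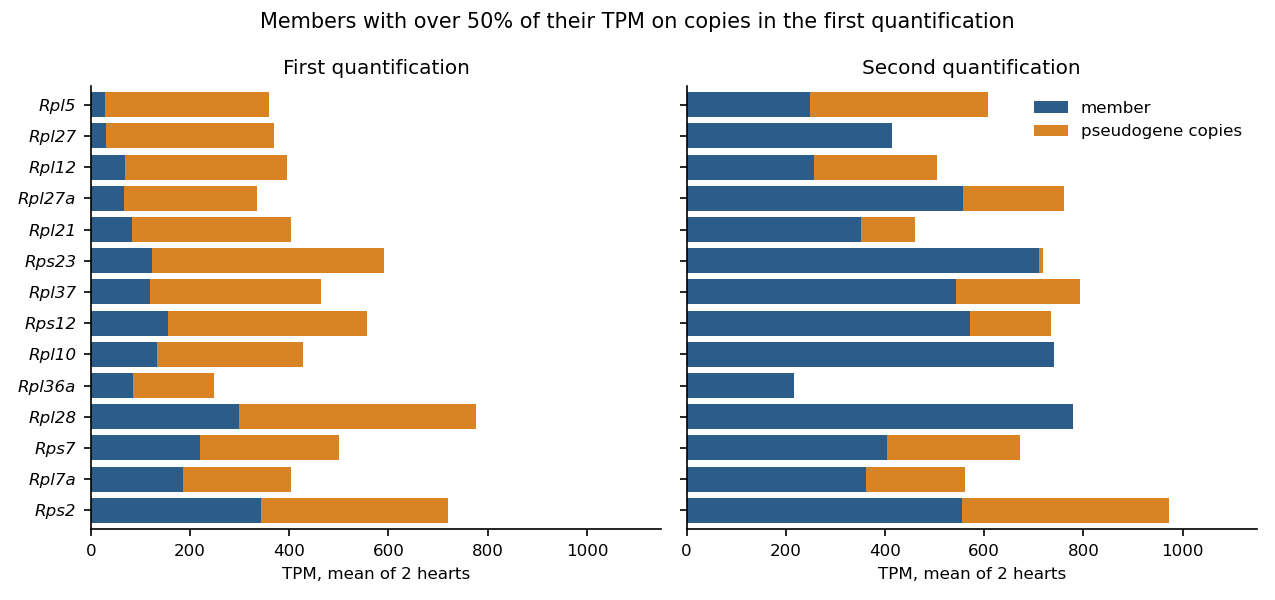
TPM (mean of 2 hearts) of the 14 core members with over 50% of their combined TPM on copies in the first quantification, with the member in blue and its pseudogene copies in orange, for each quantification. The blue bars are the shorter part at left, down to 27.9 TPM for Rpl5, while at right the copies of Rpl27, Rpl10, Rpl28 and Rpl36a carry next to nothing.

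Adding the copies to each member narrowed the range of the core genes. The highest core gene was 38.7 times the lowest for members alone and 7.70 times with copies added, and the SD of log2 levels fell from 0.95 to 0.48. The number within 2-fold of the median went from 63 to 71 of 77, and the median from 343 to 421 TPM. In the second quantification the SD was 0.65 for members alone and 0.56 with copies. With copies added the lowest core gene of the first quantification was Rpl22, for which the search found no copy, at 140 TPM. The form searched for Rpl22 was Rpl22-205, which is not typed as protein-coding. Its coding form Rpl22-201, with 86.1% and 85.0% of its TPM in the first quantification, was not searched. The number of members over 2-fold apart between the quantifications in both hearts was 9 of 84 with copies added, against 28 without. Over all genes, without copies, the share was 12.6%. No share over all genes was computed with copies added. Across 83 members the log2 levels of the 2 quantifications had a Pearson r of 0.75 and a Spearman rho of 0.62 alone, and 0.92 and 0.69 with copies. The log2 ratio of the second to the first quantification had an r of 0.73 with the percent of TPM on copies, an r of 0.17 with the percent of windows shared and an r of -0.03 with the log2 length of the leading transcript. Only 35 of 83 members had the same leading transcript in both quantifications, so 1 length per member cannot show the part of length. These correlations are descriptions over genes of the same 2 libraries, and the ratio and the percent on copies share the member's first value.

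**Figure D3:**
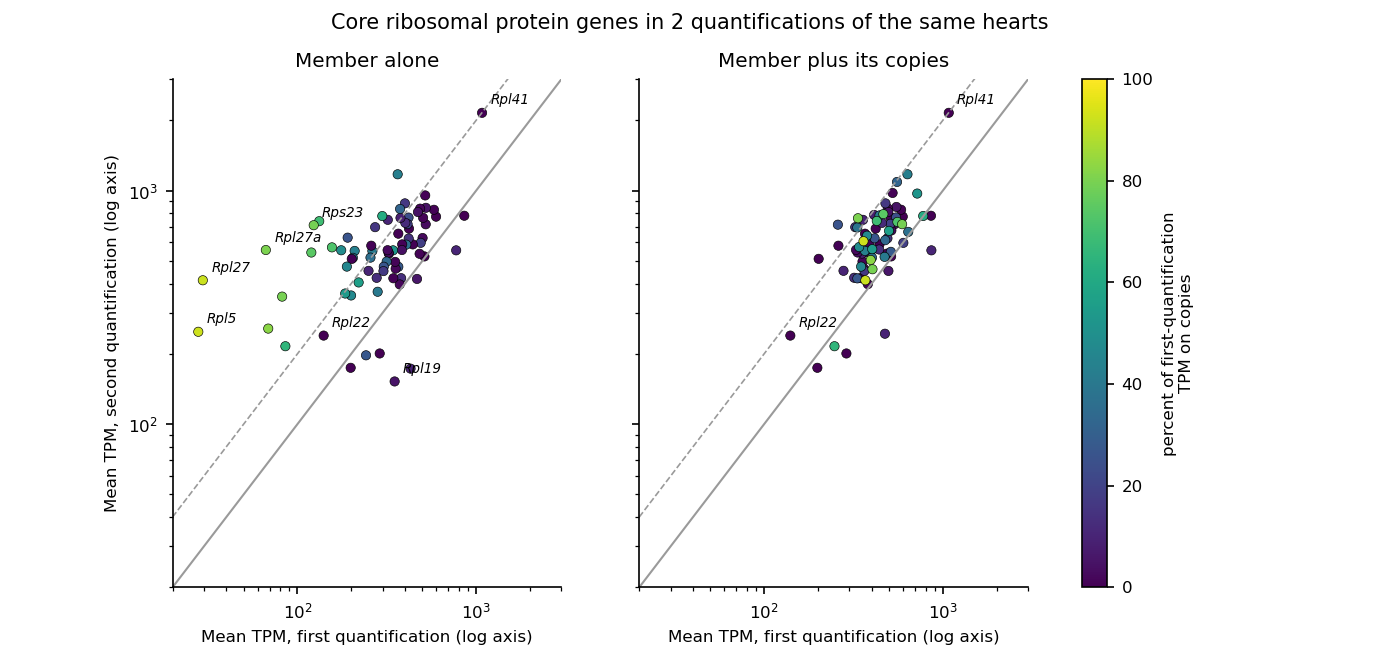
Mean TPM of the 77 core genes in the first (x, log axis) and the second quantification (y, log axis), for members alone and with their copies added. The solid line marks equal values and the dashed line a 2-fold higher second value, and colour gives the percent of first-quantification TPM on copies. Rpl5, Rpl27, Rpl27a and Rps23 lie far left of the others alone and among them with copies added.

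The letters of the copies show how close they are to the members. Of the copies at 10 TPM or more in each heart, 46 covered the whole coding sequence of their member's leading coding transcript with no gap and no more than 5% of bases different, which came to at most 12. Of these, 10 had 0 differences and were exactly as long as the coding sequence, and all 10 were listed at 0 in both hearts in the second quantification. In the first these 10, among them Rpl28-ps1, Rpl31-ps8, Rpl36a-ps2, Rps16-ps2 and Rps12l1, summed to 1674 TPM. Of 4 copies identical over the compared bases that reach past the coding sequence, Rpl10-ps3 and Rps12-ps3 were at 0 in the second quantification. Gm10275 (a copy of Rpl12) and Gm15500 were not. Gm15500 spans 1019 bases and was compared only over the 489 coding bases of the leading coding form of Rpl5. Of 19 copies with 1 or 2 differences, 6 had 10 TPM or more in each heart in the second quantification, and of 13 with 3 or more differences, 10 did. The Rpl35a copies among the 19 were 333 bases long, with the same 32.47 and 31.29 TPM in the first and 0 in the second. Length varied too, from 171 to 441 bases in the 10 copies and from 390 to 965 in the 13. The part of length and of differences was not tested.

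Rps12, a protein of the 40S beak, shows both kinds and is printed for that reason. The coding sequence of its leading coding transcript (GENCODE M21, gene on chromosome 10, 23785183 to 23787275, minus strand) is identical over its 399 bases to the copy Rps12l1 (chromosome 7, 56014016 to 56014414), and Rps12-ps10 on chromosome 2 differs from it at 4 bases, all within bases 1 to 300, which are shown with those 4 in capitals.
Rps12 and Rps12l1: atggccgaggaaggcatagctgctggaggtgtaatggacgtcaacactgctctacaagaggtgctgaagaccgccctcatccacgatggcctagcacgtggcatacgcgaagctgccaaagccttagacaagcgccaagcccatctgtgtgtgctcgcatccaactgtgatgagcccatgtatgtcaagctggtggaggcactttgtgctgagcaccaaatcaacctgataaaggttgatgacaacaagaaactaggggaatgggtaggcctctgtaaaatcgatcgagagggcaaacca
Rps12-ps10: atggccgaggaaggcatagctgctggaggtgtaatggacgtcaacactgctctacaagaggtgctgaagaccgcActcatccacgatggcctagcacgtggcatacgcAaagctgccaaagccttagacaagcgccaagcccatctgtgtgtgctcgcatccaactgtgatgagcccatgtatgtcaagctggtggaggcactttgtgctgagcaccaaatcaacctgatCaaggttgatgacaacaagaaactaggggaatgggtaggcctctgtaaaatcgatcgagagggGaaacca
Rps12 had 147 and 165 TPM in the first quantification and 558 and 586 in the second. The identical copy Rps12l1 had 130 and 135 TPM in the first and 0 in both hearts in the second. Rps12-ps10, with its 4 differences, had 53.8 and 54.4 TPM in the first and 162 and 157 in the second. Rps12 with all its 18 copies came to 557 TPM in the first and 735 in the second.

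Rpl19 went the other way. It had 343 and 356 TPM in the first quantification and 134 and 170 in the second, while its copy Rpl19-ps11, with 1 difference over 591 coding bases, had 17.2 and 19.4 TPM in the first and 389 and 394 in the second. Rpl36, Rps29 and Rps21 were lower in the second as well. Rpl36 had 446 and 413 TPM against 187 and 159, and Rps29 had 5642 and 6277 expected counts in the first against 1531 and 1098 estimated counts in the second. Rps21, with no shared window, had 287 and 290 TPM against 246 and 156, so its hearts lay apart in the second quantification alone. The gap between transcript length and the effective length behind TPM was at most 99 bases in the first tables. In the second it reached 342 in replicate 1 and 352 in replicate 2. Over all members the share of counts was 1.10% and 1.17% in the first and 1.15% and 1.23% in the second. Their share of mouse-gene TPM was 2.66% and 2.69% against 4.47% and 4.62%. How far transcript length or shared sequence sets these differences was not tested.

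The paralogs were read against their parent genes. Rpl3, the 60S protein beside the catalytic centre, had 271 and 255 TPM and its striated-muscle paralog Rpl3l 9.69 and 8.19, a mean difference of 4.87 ± 0.11 on the log2(TPM + 0.1) scale (SD, n = 2). Rpl3l had 289 and 286 counts and shared no window of 100 bases with Rpl3 or any other gene. Rpl22 had 147 and 134 TPM against 74.55 and 72.8 for Rpl22l1, a log2 difference of 0.93 ± 0.07 and of 0.69 in the second quantification. Of the TPM of Rpl22l1, 82.3% and 79.0% was on Rpl22l1-209, a form not typed as protein-coding. That form had 0 and 0.60 TPM in the second quantification. Rpl7 had 450 and 484 TPM against 30.4 and 30.2 for Rpl7l1, a log2 difference of 3.94 ± 0.08. The first gene was the higher in 8 of 9 measured pairs, a count that holds the pair of elongation factors Eef1a1 and its muscle form Eef1a2 (1847 and 1890 against 242 and 193 TPM). Rps19bp1, a regulator of a deacetylase and no constituent of the standard ribosome, had 11.8 and 10.9 TPM. Rps4l was not analysed here.

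The exception was Rpl36a, with 84.0 and 87.3 TPM against 140 and 130 for its paralog Rpl36al, a log2 difference of -0.66 ± 0.11. Rpl36a was the higher in the second quantification, by 0.23. With its 2 copies, chiefly Rpl36a-ps2 at 164 and 153 TPM, Rpl36a came to 248 TPM in the first quantification. The paralogs of the X-linked genes Rpl10 and Rpl39, Rpl10l and Rpl39l, are known from the testis, and both were at 0 counts in the first quantification. Rpl39 itself, which lines the exit tunnel, had 255 and 263 TPM.

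Rps27 has 2 further genes, and their coding sequences are printed to show how far each can be told from it. Rps27 (chromosome 3, 90212522 to 90213651, minus strand) and Rps27rt (chromosome 9, 114982366 to 114982739, minus strand) are identical over all 255 coding bases, and Rps27l (chromosome 9, 66946086 to 66949516, plus strand) differs at 61 of them, in capitals, with no identical run longer than 11 bases.
Rps27 and Rps27rt: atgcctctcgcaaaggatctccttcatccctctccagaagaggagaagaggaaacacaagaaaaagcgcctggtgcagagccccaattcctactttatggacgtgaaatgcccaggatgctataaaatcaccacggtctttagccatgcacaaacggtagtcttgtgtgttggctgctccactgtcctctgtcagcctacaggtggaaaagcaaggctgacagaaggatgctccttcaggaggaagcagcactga
Rps27l: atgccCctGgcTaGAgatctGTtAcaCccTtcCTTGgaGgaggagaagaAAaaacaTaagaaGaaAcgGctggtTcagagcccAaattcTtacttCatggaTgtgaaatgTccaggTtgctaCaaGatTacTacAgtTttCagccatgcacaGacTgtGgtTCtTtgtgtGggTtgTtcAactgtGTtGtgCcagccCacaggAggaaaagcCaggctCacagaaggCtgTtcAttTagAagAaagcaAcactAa
Rps27 had 585 and 609 TPM, Rps27l, a p53-regulated paralog, 108 and 107, and Rps27rt 17.0 and 17.5. In the second quantification they had 767 and 780, 185 and 186, and 0. The form of Rps27l that was searched, Rps27l-204, shared no window with another gene. Its coding form Rps27l-201, with 89.5% and 90.2% of its TPM in the first quantification, was not searched. Rps27l had 1072 and 1259 counts, and its TPM stood 2.47 ± 0.05 below that of Rps27 on the log2(TPM + 0.1) scale. The counts of Rps27rt, 114 and 139, cannot be told from those of Rps27 inside the coding sequence.

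The hearts were compared by the log2 ratio of replicate 2 over replicate 1 after TMM scaling, with 84 members among the 16271 genes that passed the filter on low counts. No member was over 2-fold apart, against 3.06% of all genes, and 1 was over 1.5-fold apart, against 12.3%. The SD of the members' log2 ratios was 0.11, against 0.40 for all genes and 0.25 for the 4971 genes averaging 1000 counts or more, a depth that 78 members reached. Without Rpl9 it was 0.09. The median coefficient of variation of member TPM was 2.78%. Of the 84, 70 lay within 0.1 of their own median ratio.

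That median was 0.14, where the median of all genes was at -0.003 and that of the genes averaging 1000 counts or more at 0.06. Of the 84 members 81 were higher in replicate 2, against 49.6% of all genes. The direction depends on the scaling. By the ratio of TPM the members' median was 0.006 and that of all genes -0.13, with 45 of 84 members higher against 30.4% of all genes, so the members stood 0.14 above all genes on both scales. By the second tables they stood 0.17 above. The 34 members of the 40S subunit had a median of 0.15 and the 50 of the 60S subunit one of 0.13. Markers of other cells moved with the same pair of libraries. The 5 fibroblast markers summed to 921 TPM in replicate 1 and 1287 in replicate 2, with 4 of 5 higher after scaling. The 5 proliferation markers summed to 168 and 216, with 5 of 5 higher, and the 5 red cell markers to 943 and 3557, with 3 of 5 over 2-fold higher. The 4 endothelial markers summed to 302 and 273 TPM, with 3 of 4 higher after scaling, and the 3 macrophage markers to 10.8 and 12.3, with 2 of 3 higher. The heart muscle markers summed to 28448 and 26626 TPM, with 2 of 5 higher, Actc1 at a log2 ratio of 0.32 and Myh6 at -0.15. None of these markers was at 0, and their part in the members' ratio was not tested.

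**Figure D4:**
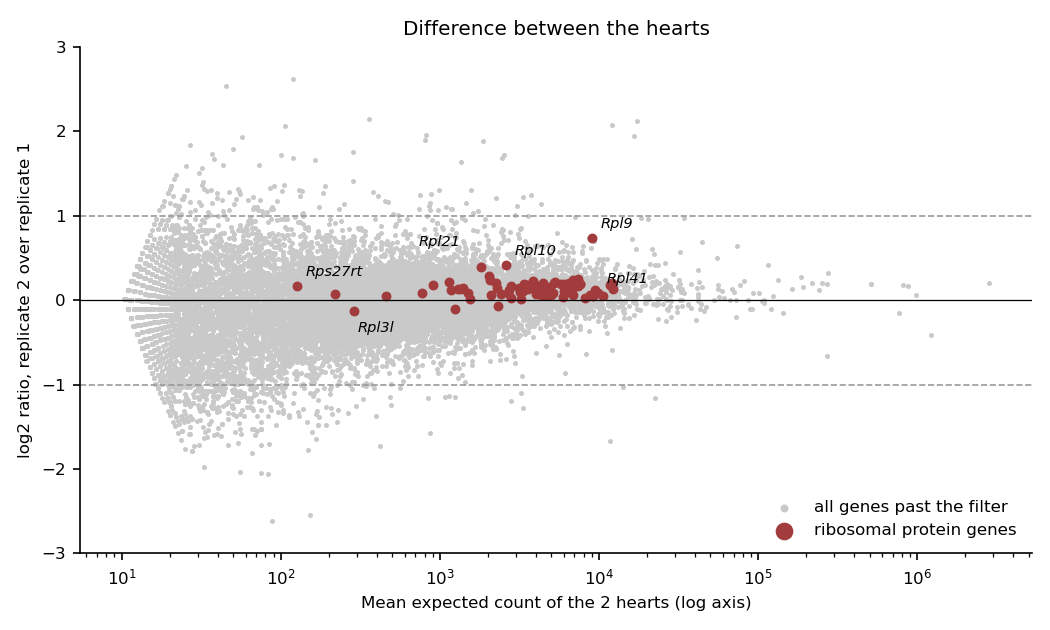
Log2 ratio of replicate 2 over replicate 1 (TMM scaling) against the mean expected count (log axis) for the genes past the filter (grey, 6 of them outside the range of 3 shown) and the 84 members (red). Dashed lines mark 2-fold. The members form a narrow band just above 0 with a median of 0.14, and Rpl9 stands above it at 0.74.

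Rpl9 (chromosome 5, 65388364 to 65391444), a 60S protein near the base of the stalk, was the member furthest from the others. It had 415 TPM in replicate 1 and 632 in replicate 2, from 6466 and 11668 expected counts. Its log2 ratio was 0.74, with a 95% interval from counting error alone of 0.69 to 0.78, and 0.80 in the second quantification. Its copy Rpl9-ps6, with 1 difference over the coding sequence, had 19.0 and 29.8 TPM in the first quantification. In the second that copy had 0.67 and 0.69 TPM. The other members with the largest ratios were Rpl10 with 0.41 (0.33 to 0.50), Rpl21 with 0.39 (0.30 to 0.49) and Rps12 with 0.29 (0.20 to 0.38). From the second tables these 3 had 0.26, 0.23 and 0.15, each below its interval. All 3 had over 50% of their TPM on copies. Rps14 followed with 0.25. Only 3 members were lower in replicate 2, Rpl3l at -0.13 (-0.37 to 0.11), Rpl7l1 at -0.10 (-0.22 to 0.01) and Rps13 at -0.07 (-0.15 to 0.02), and each interval holds 0. From the second tables Rpl3l had -0.20, Rpl7l1 -0.08 and Rps13 0.07, and 6 of 83 members were lower, with Rps29 at -0.54 and Rps21 at -0.46 the lowest, named after their values were seen. In the first quantification Rpl36, Rpl36al and Rps2 came next after Rps13, at 0.02 each. Counting intervals do not hold the spread between animals, which 2 hearts cannot give. They also leave out any error in how reads were shared between a member and its copies.

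The 505 annotated transcripts of the members include forms that are not typed as protein-coding. Over all members 82.8% ± 0.25 of TPM (SD, n = 2) was on transcripts typed protein_coding, 8.81% ± 0.02 on retained_intron forms, 4.85% on processed_transcript forms and 3.50% on forms marked for nonsense-mediated decay. In the second quantification protein_coding forms held 69.7% and retained_intron forms 16.6%. Both hearts had the same leading transcript in 81 of 84 expressed members in the first and in 78 of 83 in the second, where Rps27rt was at 0. Between the quantifications 35 of 83 members had the same leading transcript. Where the length of the leading form differed it was longer in the second in 37 members and shorter in 11, and the median length was 596 bases in the first and 713 in the second.

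**Figure D5:**
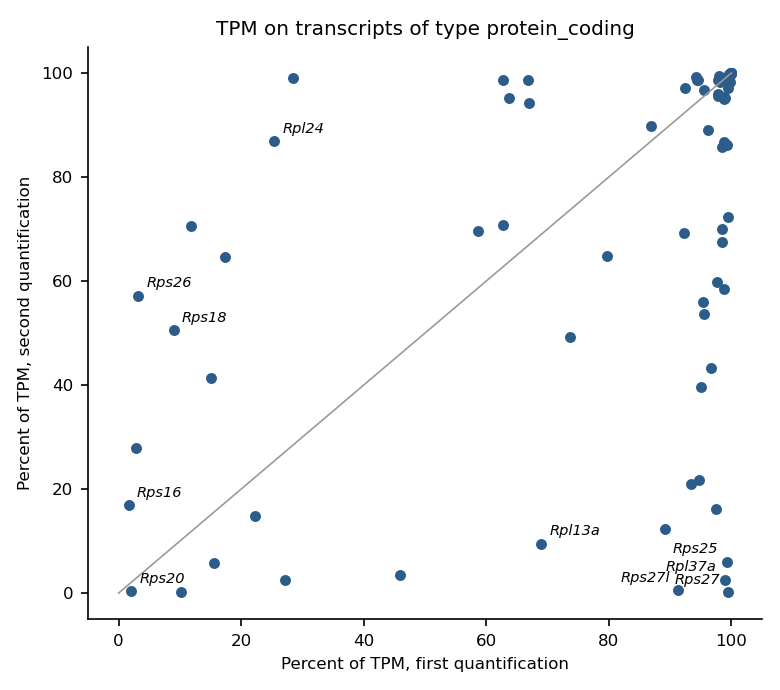
Percent of a member's TPM on transcripts typed protein_coding, mean of 2 hearts, in the first (x) and the second quantification (y), with a line at equal values. A cluster of members lies near 100% in both, Rps27, Rps27l, Rpl37a and Rps25 sit at lower right with 99.5%, 91.3%, 98.9% and 99.2% against 0.209%, 0.587%, 2.60% and 6.04%, and Rpl24 sits at upper left.

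The 6 members with the lowest share on protein_coding forms were Rps16 with 1.61%, Rps20 with 2.05%, Rpl35 with 2.76%, Rps26 with 3.18%, Rps18 with 8.97% and Rpl37 with 10.2%. For Rps16, whose protein reaches toward the decoding site, the retained_intron form Rps16-203 carried 62.5% and 65.3% of TPM in the hearts and 83.1% and 83.0% in the second quantification. Rps20 had its TPM on the retained_intron forms Rps20-201, with 70.8% and 69.7%, and Rps20-202, with 27.1% and 28.3%. Rps26 moved from 3.18% to 57.2% on its coding form, and Rps18 from 8.97% to 50.6%. Rps27 went the other way, since its coding form Rps27-201 of 345 bases held 98.9% and 99.4% in the first and was listed at 0 in the second, where the retained_intron form Rps27-209 of 546 bases held 97.3% and 81.0%. Rps27l changed in the same manner between its forms Rps27l-201 of 499 bases and Rps27l-204 of 566 bases. The gene sums of Rps27 differed 1.30-fold between the quantifications and those of Rps27l 1.72-fold. Types are those of the annotation, and which form was present was not tested.

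The RefSeq start sites were searched for the TOP tract. RefSeq promoter windows (build GRCm38.p6) held 78 starts for 66 of the 86 members. A C followed by at least 4 pyrimidines began within 10 bases of a start in 40 of the 66 members, against 34.4% of 27025 genes with a start and 37.1% of expressed protein-coding genes. With at least 6 further pyrimidines it was 30 of 66 against 14.1%, and at the start base itself 14 of 66 against 3.01%. Per start the share was 53.8% for members and 30.7% of 32851 starts. The 6 highest members by TPM with the tract at the start base are shown from 10 bases before the start to 15 from it, with the tract in capitals, followed by Rpl7l1 and Rps19bp1, the members that are no constituents, which have none within 10 bases.
Rps27: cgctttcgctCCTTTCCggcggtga
Rplp2: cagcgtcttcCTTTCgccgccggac
Rpl15: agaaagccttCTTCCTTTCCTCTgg
Rpl38: aagcctcgttCTTTCCCCgttctct
Rps15a: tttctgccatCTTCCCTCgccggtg
Rps10: gcgcacgcccCTTCCTTTCCagcct
Rpl7l1: gctgcgcaagcgcagtagctgaagc
Rps19bp1: cggaagtagctcgccgcgtgtgggc
The windows lie at chr3:90213634-90213658 (minus strand) for Rps27, chr7:141447641-141447665 (plus) for Rplp2, chr14:18270972-18270996 (minus) for Rpl15, chr11:114668570-114668594 (plus) for Rpl38, chr7:118116133-118116157 (minus) for Rps15a, chr17:27635230-27635254 (minus) for Rps10, chr17:46782642-46782666 (minus) for Rpl7l1 and chr15:80264292-80264316 (minus) for Rps19bp1. The tract in these windows ran from 5 bases in Rplp2 to 13 in Rpl15. Rpl38, which is known for its part in translating Hox mRNAs, had 403 and 400 TPM and Rpl15 398 and 428. Core members with a tract within 10 bases numbered 34, with a median of 301 TPM, and those without 23, with a median of 324. Among members with no start listed in this table were Rpl3, Rpl7, Rpl8, Rpl17, Rpl21, Rpl23a, Rpl29, Rpl30, Rpl32, Rpl36, Rplp1, Rps14, Rps20, Rps27a and Rps29.

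Other promoter letters were counted in the windows from 250 bases before to 50 after the start, on both strands. The ETS-type motif CCGGAAG was in 26 of 66 members, against 9.93% of all genes and 20.8% of expressed protein-coding genes. The YY1-type motif AAGATGGC was in 6, against 3.19% and 5.41%, and the Sp1-type GGGCGG in 41, against 38.2% and 70.7%. TATAAA was in 7, against 15.7% and 8.42%. A match describes letters in the window and not a bound factor.

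In the genome (mm10) the members lay on 19 chromosomes, with 14 on chromosome 7 and 4 on the X. The 4 core genes on the X, Rpl10, Rpl36a, Rpl39 and Rps4x, had a median of 196 TPM alone and of 344 with copies. In the second quantification the median of these 4 was 660 TPM alone and 661 with copies, where that of all core genes alone was 555. Inside 30 members lay 58 small nucleolar RNA genes, up to 5 in 1 member, Rpl4. Small nucleolar RNAs guide the modification of ribosomal RNA and are known to be cut from introns of such genes.

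Ribosome genes outside the symbol rule stood at member levels. Fau, which encodes Rps30 fused to a ubiquitin-like protein, had 359 and 365 TPM. Rack1, the scaffold on the head of the 40S subunit, had 284 and 278. The rest of the translation machinery lay lower in the main. All 30 initiation factor genes were expressed, with a median of 58.7 TPM, led by Eif1 with 496 and 536 and Eif4g2 with 459 and 439, then Eif5a with 241 and 233 and Eif4a1 with 218 and 225. The 8 elongation factor genes had a median of 191 TPM, led by Eef1a1 and Eef2 with 558 and 567, then Eef1b2 with 223 and 227 and Eef1a2 as given above. All 29 ribosome biogenesis genes were expressed with a median of 16.2 TPM, led by Npm1 with 118 and 114 and Ncl with 76.5 and 86.4, then Ipo7 with 44.7 and 41.8 and Nop58 with 41.5 and 40.2. The 17 genes of mTOR and TOP mRNA control had a median of 30.7 TPM, led by Cnbp with 127 and 138 and Eif4ebp1 with 89.3 and 90.7, then Rheb with 39.5 and 41.7 and Eif4ebp2 with 39.8 and 40.3. Between the hearts no gene of these 5 lists was over 1.5-fold apart, against 12.3% of all genes. Their median log2 ratios were 0.17 for initiation factors with 26 of 30 higher in replicate 2, -0.02 for elongation factors with 4 of 8, 0.11 for biogenesis with 19 of 29 and -0.002 for mTOR and TOP control with 8 of 17.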

How the data were processed

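Expected counts and TPM per gene and transcript were deposited by the authors in tables made from an alignment to transcripts (the first quantification), per the file headers and the notes beside them. Each library has a further deposited table of estimated counts and TPM per transcript, made from the reads and an index (the second quantification). The build was mm10 and the annotation GENCODE M21, per those notes; aligner, tool versions and settings are not given in the sources used here. ERCC and short numbered rows were left out of all sums.

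Expected counts were rounded and log2 ratios of replicate 2 over replicate 1 computed with edgeR 4.0.16 (R 4.3.3, TMM, filterByExpr, prior count 2), with DESeq2 1.42.0 size factors as an alternative. No p-value was computed. The edgeR common biological coefficient of variation over all filtered genes was 15.21%. SDs rest on 2 hearts. Counting intervals are exact at 95% and treat rounded expected counts as counted reads. They cover counting error only, since PCR copies are not independent molecules and the assignment of shared reads is not included. Other steps used Biopython 1.88, SciPy 1.17.1, NumPy 2.4.6 and pandas 2.3.3 under Python 3.11.15. Coding sequences came from GENCODE M21 transcripts and start windows from RefSeq (GRCm38.p6).

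Named in full were the 12 highest and 8 lowest members by TPM, those under a TPM of 1, the 6 largest ratios between hearts in each direction, the 8 largest between quantifications, the paralog pairs, the 6 with the lowest coding share, and the 4 highest genes of each other list. Members and lists were chosen with earlier results of these data known, and the copies, their identity and the printed sequences after values were seen. Some genes and transcripts that this rule would name are not reported here.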

Additional observations from a re-analysis of the deposited data

How the results depend on the processing

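The median member level of 317.72 TPM became 539.92 in the second quantification, 719.35 rescaled to nuclear protein-coding genes and 402.09 with copies added, an alternative chosen after seeing the data, and 315.67 to 316.36 with 1 heart left out. The share of mouse-gene TPM of 2.68% became 4.55% in the second quantification, 6.01% of nuclear protein-coding TPM, 1.14% of expected counts and 3.10% with named pseudogenes. The median log2 ratio between hearts of 0.14 was 0.0060 by the ratio of TPM, and 0.14 to 0.18 with DESeq2 size factors, spike-in totals, no filter, a prior count of 0.5 or the second quantification. At 1.5-fold the count of members apart between hearts was 1 in place of 0. The count of 28 of 84 members over 2-fold between quantifications (12.6% of all genes) became 15 after centring (9.69%) and 53 at 1.5-fold (29.4%). With copies added, an alternative chosen after seeing the data, it was 9, with no share over all genes computed. The percent on protein_coding forms of 82.8 became 69.7 in the second quantification and 84.6 by expected counts. The 40 members with a start tract became 14 at the start base. Rpl36a over Rpl36al, at -0.66, reversed to 0.23 in the second quantification. The cause was not tested in any of these. Of the alternatives planned for the summary values 25 moved little by the limit set for each kind of value and 15 moved further. For single paralog pairs 25 moved little, 10 moved further and 1, the Rpl36a pair, reversed. No paired analysis was possible because the study has 1 group, so no replicate number pairs samples across groups; paralog differences were taken within each heart. Rpl39l and Rpl10l had 0 counts, and whether depth plays a part in this was not tested. Rps27rt had 114 and 139 counts and a coding sequence identical to that of Rps27, and the part of depth was not tested.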
